A study of Homo sapiens with 12 samples.

Results

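The genes described here encode complement components and regulators, and are 9 of the 60564 rows of a gene expression table of 2 human pancreatic ductal adenocarcinoma cell lines. They were taken by symbol: the components C3, CFB, CFD, C1R and C1S, the soluble inhibitor CFI, and the membrane inhibitors CD46, CD55 and CD59. The list was chosen by symbol with results of these libraries in view, and the measured value known to lie behind the choice is the change of CFB in BxPC-3, which had passed the test. Which values lay behind the other 8 symbols is not stated. The changes on induction are therefore given as a description of these libraries. The groups were BxPC-3 cells starved of serum for 48 h to grow primary cilia (induced), BxPC-3 cells in ordinary culture (control), CFPAC-1 cells starved in the same way (induced) and CFPAC-1 cells in ordinary culture (control), with 3 libraries in each of the 4 groups. Ciliated cells made up 78% of induced and 5% of control BxPC-3 cells, and 39% of induced and 7% of control CFPAC-1 cells, in the study's own count, which carries no error. All induced libraries had both starvation and cilia, whose effects cannot be told apart. The labels name no separate cultures behind the 3 libraries of a group, so a p-value here reflects only how libraries varied.

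Complement is a cascade of plasma proteins that marks and lyses targets. In the classical pathway the proteases C1r and C1s, bound to C1q, cleave C4 and C2. In the alternative pathway C3, the central component, binds factor B (CFB), and factor D (CFD) cleaves the bound factor B to give the enzyme that cleaves more C3. Factor I (CFI) inactivates C3b and C4b with cofactors such as CD46, CD55 speeds the decay of the convertases, and CD59 blocks the membrane attack complex. The liver makes most plasma complement, and epithelial cells, those of pancreatic cancer among them, can make several components locally.

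Values are FPKM, fragments scaled to transcript length and to mapped fragments, recovered from deposited values of log2(FPKM + 1). A log2 change is a difference of group means of log2(FPKM + 1), and is smaller than the true log ratio for low genes. A gene is said to have passed the test where limma, fitted over the 12860 genes with at least 1 FPKM in at least 3 of the 12 libraries, gave a Benjamini-Hochberg adjusted p under 0.05. All 9 genes met that filter, CFI through exactly 3 libraries, all of them BxPC-3.

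Libraries labelled CFPAC-1 control 2 and 3 stood apart from the rest of that line. They correlated at 0.99 with each other across tested genes and at a mean of 0.803 with the 4 remaining CFPAC-1 libraries, which correlated at 0.944 among themselves. KRT19, a duct keratin, had 532 FPKM in CFPAC-1 control 1 but 7.42 and 7.67 FPKM in control 2 and 3. EPCAM, an epithelial surface marker, had 14.8 FPKM in control 1 but 0.963 and 1.04 FPKM in control 2 and 3. Induction changes in CFPAC-1 are therefore given also without these libraries, a fit in which the single control library takes its spread from the other groups. Of the 6 duct epithelium markers, KRT7 and CDH1 were abundant in BxPC-3 but reached at most 2.01 and 0.892 FPKM in any CFPAC-1 library, which goes against the duct epithelium label for these 2 markers. Summed levels of hepatocyte markers reached at most 0.63 FPKM and of endothelial markers at most 0.621 FPKM in any library. Within each group, libraries 2 and 3 lay closer to each other than to library 1, so the changes of number 1 and of numbers 2 and 3 are also given apart where they differ.

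CFB and C3 were both higher on induction in both lines. CFB had 29.5, 23.1 and 21.7 FPKM in induced BxPC-3 libraries, against 6.17, 3.17 and 3.38 FPKM in BxPC-3 control libraries. It had 17.0, 20.8 and 20.8 FPKM in induced CFPAC-1 libraries, against 2.56, 0.126 and 0.0406 FPKM in CFPAC-1 control libraries. No induced library overlapped a control library of its own line, and every induced library lay above every control library of both lines. In bulk RNA, a larger share of cells making a transcript and more of it per cell cannot be told apart. The induced means were 24.8 ± 4.14 FPKM in BxPC-3 and 19.5 ± 2.19 FPKM in CFPAC-1, and the control means were 4.24 ± 1.67 FPKM in BxPC-3 and 0.91 ± 1.43 FPKM in CFPAC-1 (SD, n = 3 each). The log2 change was 2.33 with a standard error of 0.41 in BxPC-3, where it passed the test. It was 2.09 within library number 1 and 2.45 within numbers 2 and 3. In CFPAC-1 CFB rose by 3.67 on the log2 scale (standard error 0.41, limma adjusted p = 0.000776), and by 2.52 with control 2 and 3 left out (limma adjusted p = 0.0102). The call in BxPC-3 was lost in 9 of the 12 fits that left out 1 library, and was kept without CFPAC-1 control 1, CFPAC-1 control 3 or BxPC-3 control 1. The log2 change stayed between 2.19 and 2.58.

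CFB (ENSG00000243649) lies at chr6:31945650-31952084 of GRCh38, on the plus strand, in the class III region of the major histocompatibility complex. Its promoter is shown because CFB passed the test in both lines. The window holds the 250 bases before the RefSeq start (GRCh38.p14, chr6:31945845-31946094, plus strand), inside the wider GENCODE span of the gene. In capitals, from left to right, are a match to the interferon-stimulated response element core (2 GAAA repeats 2 bases apart, here on the minus strand, 140 to 131 bases before the start), a gamma-activated site (TTC and GAA 3 bases apart, 92 to 84 bases before the start) and a TATA box (TATAAA, 30 to 25 bases before the start).
CFB promoter: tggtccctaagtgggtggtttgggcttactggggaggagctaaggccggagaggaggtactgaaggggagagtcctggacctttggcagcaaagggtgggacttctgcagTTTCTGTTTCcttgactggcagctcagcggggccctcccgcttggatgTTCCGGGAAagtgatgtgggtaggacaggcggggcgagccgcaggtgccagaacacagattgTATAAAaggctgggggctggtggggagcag
Of all 27305 promoter windows of the table, searched on both strands, 3.07% held the interferon-stimulated core, 6.78% the gamma-activated site and 11.1% the TATA box. An NF-kB consensus site was in 5.05% of all windows and the hypoxia core ACGTG in 18.7%, and neither was in any of the 7 member windows found (CFB, CFD, CFI, C1R, CD46, CD55 and CD59). These matches are descriptions of the sequence.

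C3 (ENSG00000125730, chr19:6677704-6730562, minus strand) had the highest group means of the 9 genes in BxPC-3. It had 82.0, 128.5 and 131 FPKM in induced BxPC-3 libraries, against 50.3, 33.3 and 31.8 FPKM in BxPC-3 control libraries. It had 20.5, 18.8 and 19.4 FPKM in induced CFPAC-1 libraries, against 1.82, 0.114 and 0.0935 FPKM in CFPAC-1 control libraries. Induced and control libraries did not overlap in either line, and BxPC-3 control libraries lay above induced CFPAC-1 libraries. In CFPAC-1 C3 rose by 3.77 on the log2 scale (standard error 0.35, limma adjusted p = 0.000325), and by 2.86 without control 2 and 3 (limma adjusted p = 0.00679). In BxPC-3 the log2 change was 1.54 with a standard error of 0.35 and did not pass (limma adjusted p = 0.151). It passed without the 2 CFPAC-1 controls that stood apart, which enter the shared estimate of spread (limma adjusted p = 0.0257). The BxPC-3 change was 0.70 within library number 1 and 1.96 within numbers 2 and 3.

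CFD (ENSG00000197766, chr19:859643-863630, plus strand), the factor B protease that adipocytes secrete as adipsin, was high in CFPAC-1. It had 35.1, 83.7 and 68.5 FPKM in induced CFPAC-1 libraries, against 18.2, 8.90 and 9.54 FPKM in CFPAC-1 control libraries. In BxPC-3 it had 9.43, 5.29 and 5.22 FPKM in induced libraries, against 4.95, 4.78 and 4.88 FPKM in control libraries. Induced values lay above control values in both lines, by a wide margin in CFPAC-1 and a narrow one in BxPC-3. In CFPAC-1 CFD rose by 2.24 on the log2 scale (standard error 0.35, limma adjusted p = 0.00347). The change was 1.64 without control 2 and 3 and no longer passed (limma adjusted p = 0.09), and it was 0.91 within library number 1 and 2.91 within numbers 2 and 3. In BxPC-3 the log2 change was 0.34 (limma adjusted p = 0.887).

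The CFD and CD55 promoters are shown as those of the other genes with a RefSeq window that rose in CFPAC-1. Capitals mark matches to the SP1 hexamer GGGCGG on either strand, which was in 42.3% of all windows. The CFD window (chr19:859414-859663, plus strand) held 3 matches and the CD55 window (chr1:207321428-207321677, plus strand) held 1, and no interferon-stimulated core, gamma-activated site or TATAAA was in either.
CFD promoter: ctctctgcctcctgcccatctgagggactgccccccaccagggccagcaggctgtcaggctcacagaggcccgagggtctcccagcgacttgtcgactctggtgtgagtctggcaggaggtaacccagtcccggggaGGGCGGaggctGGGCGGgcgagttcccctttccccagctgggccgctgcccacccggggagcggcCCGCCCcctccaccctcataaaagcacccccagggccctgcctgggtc
CD55 promoter: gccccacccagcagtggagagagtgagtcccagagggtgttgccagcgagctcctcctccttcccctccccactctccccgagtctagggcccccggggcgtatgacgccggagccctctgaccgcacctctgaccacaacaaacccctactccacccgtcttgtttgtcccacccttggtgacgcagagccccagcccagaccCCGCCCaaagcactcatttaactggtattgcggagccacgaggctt

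**Figure D1:**
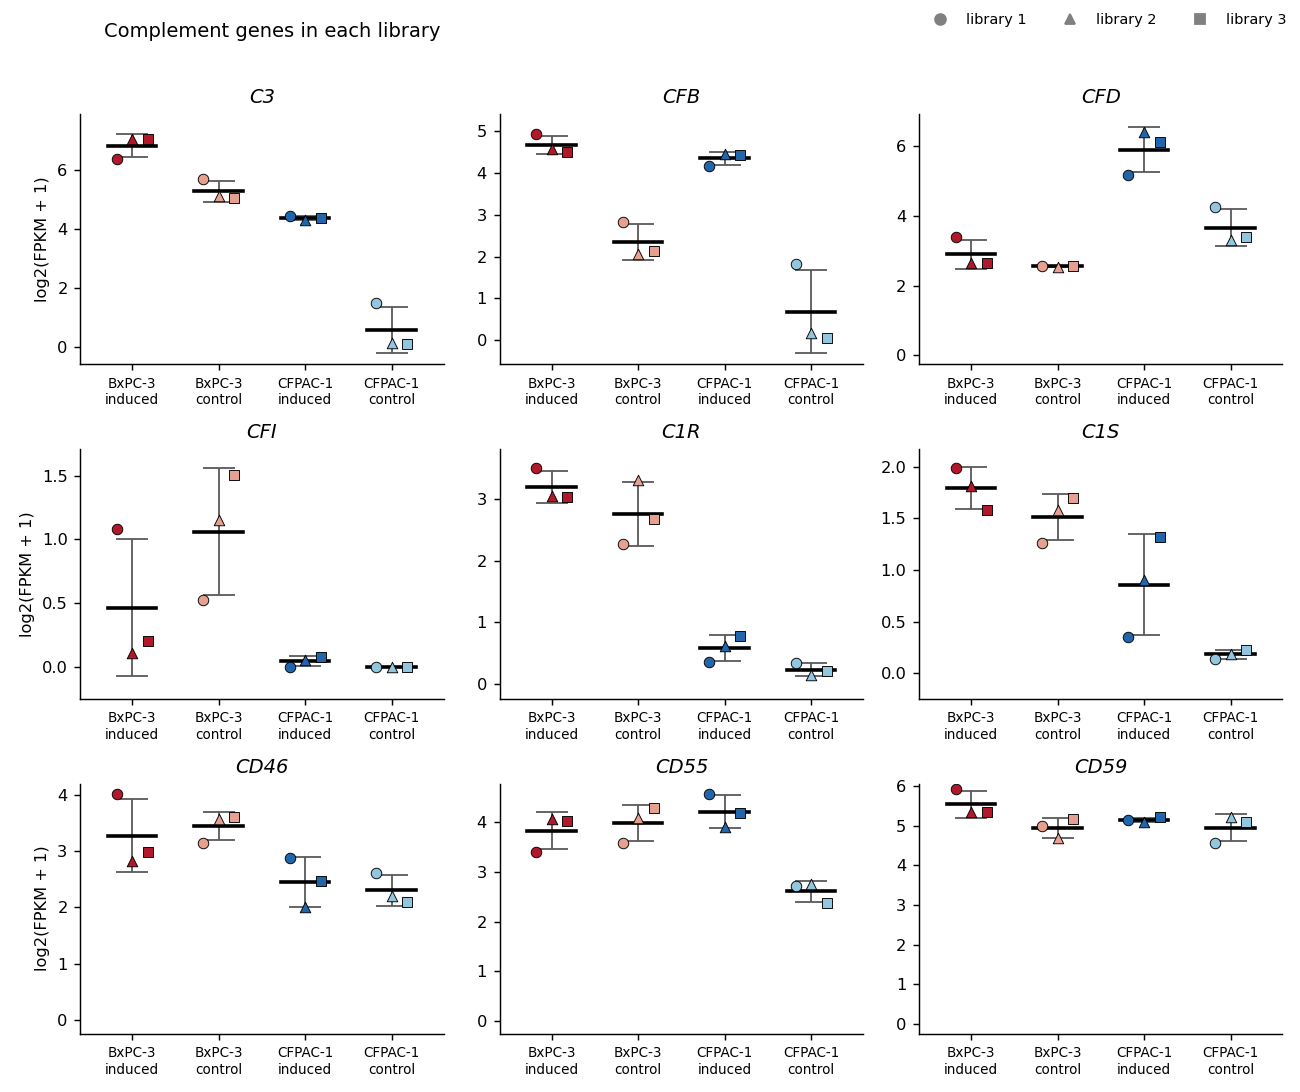
Level of each of the 9 genes in every library, as log2(FPKM + 1). Points are single libraries (circle 1, triangle 2, square 3), the thick line is the group mean and the bars are 1 SD (n = 3). C3 and CFB lay higher in all 6 induced libraries than in the control libraries of the same line, CFD was highest in induced CFPAC-1 libraries, and CD55 was lowest in CFPAC-1 control libraries.

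C1R and C1S, the classical pathway proteases, were expressed mainly in BxPC-3. C1R (ENSG00000159403, chr12:7080199-7092607, minus strand) had 10.4, 7.30 and 7.25 FPKM in induced BxPC-3 libraries, against 3.84, 9.00 and 5.43 FPKM in BxPC-3 control libraries. It had 0.272, 0.525 and 0.711 FPKM in induced CFPAC-1 libraries, against 0.262, 0.0952 and 0.157 FPKM in CFPAC-1 control libraries. The BxPC-3 groups overlapped, and every CFPAC-1 library stayed under 1 FPKM. The C1R log2 change was 0.44 in BxPC-3 (limma adjusted p = 0.7) and 0.35 in CFPAC-1 (limma adjusted p = 0.341). With CFPAC-1 control 2 and 3 left out, C1R had a log2 change of 0.24 (limma adjusted p = 0.814). Within BxPC-3 it was 1.23 for library number 1 and 0.04 for numbers 2 and 3.

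C1S (ENSG00000182326, chr12:6988259-7071032, plus strand) had 2.98, 2.52 and 2.00 FPKM in induced BxPC-3 libraries, against 1.40, 2.00 and 2.24 FPKM in BxPC-3 control libraries. It had 0.272, 0.876 and 1.49 FPKM in induced CFPAC-1 libraries, against 0.101, 0.138 and 0.164 FPKM in CFPAC-1 control libraries. The BxPC-3 groups overlapped and the CFPAC-1 groups did not. The C1S log2 change was 0.28 in BxPC-3 (limma adjusted p = 0.83) and 0.68 in CFPAC-1 (limma adjusted p = 0.0672), or 0.72 without control 2 and 3 (limma adjusted p = 0.318). The 2 genes lie 9.17 kb apart on opposite strands. Their ratio of FPKM, C1R over C1S, averaged 3.33 ± 0.388 in induced and 3.22 ± 1.11 in control BxPC-3 libraries (SD, n = 3 each), and was 0.476 and 0.6 in the 2 induced CFPAC-1 libraries where both genes reached 0.5 FPKM. C1S overlaps EMG1 and, on the opposite strand, LPCAT3, and C1R overlaps C1RL. The use of strand in counting is not given in the sources used here, so reads of these neighbours may not be fully parted.

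CFI (ENSG00000205403, chr4:109740694-109802179, minus strand) was low throughout. It had 1.11, 0.0784 and 0.148 FPKM in induced BxPC-3 libraries, against 0.44, 1.22 and 1.84 FPKM in BxPC-3 control libraries. In CFPAC-1 it was listed at 0, 0.0405 and 0.0568 FPKM in induced libraries and at 0 in all 3 control libraries. The BxPC-3 groups overlapped, since induced library 1 lay above control library 1 while numbers 2 and 3 went the other way. The log2 change was -0.60 in BxPC-3 (limma adjusted p = 0.605). Library number 1 alone gave 0.55 and numbers 2 and 3 gave -1.17. In CFPAC-1 it was 0.05 (limma adjusted p = 0.93). With CFPAC-1 control 2 and 3 left out, CFI had a log2 change of 0.05 (limma adjusted p = 0.993).

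Among the membrane inhibitors, CD55 rose in CFPAC-1 and CD46 and CD59 passed in neither line. CD55 (decay-accelerating factor, ENSG00000196352, chr1:207321376-207386804, plus strand) had 22.7, 13.9 and 17.0 FPKM in induced CFPAC-1 libraries, against 5.53, 5.73 and 4.17 FPKM in CFPAC-1 control libraries. In BxPC-3 it had 9.52, 15.6 and 15.2 FPKM in induced libraries, against 10.9, 15.9 and 18.3 FPKM in control libraries. The groups were clear of each other in CFPAC-1 and overlapped in BxPC-3. CFPAC-1 control 2 and 3 lay close to control 1 for this gene. CD55 rose by 1.60 on the log2 scale in CFPAC-1 (standard error 0.26, limma adjusted p = 0.00419). Without control 2 and 3 the change was 1.50 and did not pass (limma adjusted p = 0.0726). In BxPC-3 it was -0.15 (limma adjusted p = 0.953).

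CD46 (membrane cofactor protein, ENSG00000117335, chr1:207752057-207795513, plus strand) lies 365 kb from CD55 in the same gene cluster. It had 15.2, 6.06 and 6.89 FPKM in induced BxPC-3 libraries, against 7.90, 11.0 and 11.2 FPKM in BxPC-3 control libraries. It had 6.35, 3.01 and 4.53 FPKM in induced CFPAC-1 libraries, against 5.11, 3.61 and 3.27 FPKM in CFPAC-1 control libraries. Both lines showed overlapping groups. The log2 change was -0.17 in BxPC-3 (limma adjusted p = 0.958). Library number 1 alone gave 0.86 and numbers 2 and 3 gave -0.69. In CFPAC-1 it was 0.15 (limma adjusted p = 0.783) and, without control 2 and 3, -0.16.

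CD59 (protectin, ENSG00000085063, chr11:33703010-33736491, minus strand) was the most abundant membrane inhibitor in every library. It had 60.2, 39.5 and 39.8 FPKM in induced BxPC-3 libraries, against 30.7, 24.7 and 34.9 FPKM in BxPC-3 control libraries. It had 34.1, 33.0 and 36.0 FPKM in induced CFPAC-1 libraries, against 22.5, 36.1 and 33.2 FPKM in CFPAC-1 control libraries. The BxPC-3 groups did not overlap, and the CFPAC-1 groups did. The log2 change was 0.60 in BxPC-3 (limma adjusted p = 0.494) and 0.19 in CFPAC-1 (limma adjusted p = 0.583). With CFPAC-1 control 2 and 3 left out, CD59 had a log2 change of 0.59 (limma adjusted p = 0.316). AL049629.2, a gene of up to 18.8 FPKM in a library, covers much of the CD59 locus on the same strand.

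**Figure D2:**
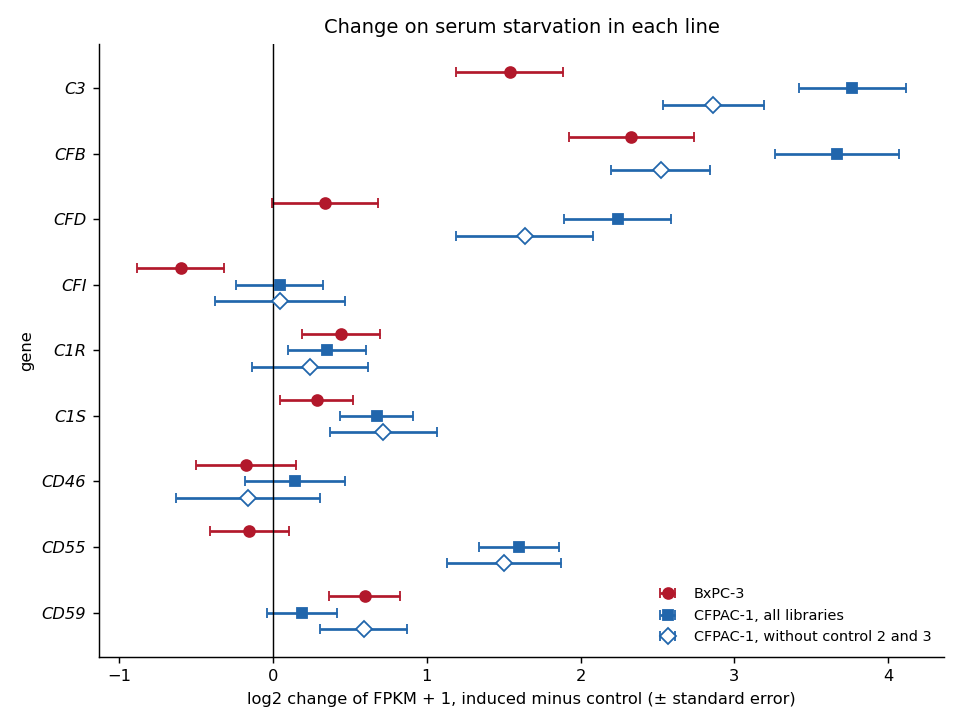
Log2 change of FPKM + 1, induced minus control, with its standard error, for the 9 genes. Red circles are BxPC-3, blue squares CFPAC-1 with all libraries and open diamonds CFPAC-1 without control 2 and 3. C3 and CFB lay right of 0 in all 3 estimates, at 1.54 to 3.77, while CD55 lay at -0.15 in BxPC-3 and at 1.60 in CFPAC-1.

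In CFPAC-1, 4 of the 9 genes (C3, CFB, CFD and CD55) rose and none fell. Of all tested genes 16.6% passed, 7.85% upwards and 8.77% downwards. At an unadjusted p under 0.05, 5 of the 9 genes rose and 0 fell. The share of all tested genes at that unadjusted threshold was not computed. The median log2 change of the 9 genes was 0.68, beside -0.09 over all tested genes. Induced values lay wholly above control values for 6 of the 9 genes, where 31.6% of all tested genes had groups that did not overlap, upwards or downwards. The 6 include C1R and C1S, both low in CFPAC-1. For C1R the nearest libraries lay at 0.272 FPKM (induced) and 0.262 FPKM (control). Without control 2 and 3, C3 and CFB passed and CFD and CD55 did not, where 1.73% of all tested genes passed. In BxPC-3, CFB alone passed, where 0.334% of all tested genes did, 0.295% upwards and 0.0389% downwards. At an unadjusted p under 0.05 there were 3 genes, all upwards, with no share over all tested genes computed. The median log2 change of the 9 genes was 0.34 in BxPC-3, beside 0.06 over all tested genes. Groups did not overlap for CFB, C3, CFD and CD59 in BxPC-3, all higher on induction. Of all tested genes 17.2% had groups there that did not overlap, upwards or downwards. With control 2 and 3 of CFPAC-1 left out, CFB and C3 passed in BxPC-3, where 0.404% of all tested genes did. The genes were chosen with such results known, so these counts are no independent evidence about complement genes.

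Some markers of other cell types, and the duct marker KRT8, also moved with induction. KRT8 had 50.7, 148.5 and 185 FPKM in induced CFPAC-1 libraries, against 274, 270 and 316 FPKM in CFPAC-1 control libraries. Its log2 change there was -1.35 (limma adjusted p = 0.0459), or -1.29 without control 2 and 3. In BxPC-3 it was -1.10 (limma adjusted p = 0.479). The other 5 duct markers did not pass in CFPAC-1. Of 6 fibroblast markers, LUM (the matrix proteoglycan lumican) had 25.5, 108 and 104 FPKM in induced CFPAC-1 libraries, against 36.8, 0.0532 and 0 FPKM in CFPAC-1 control libraries, and it passed upwards at 4.30 on the log2 scale (limma adjusted p = 0.0274). Without control 2 and 3 its change was 0.83 (limma adjusted p = 0.55), and within library number 1 it was -0.51. COL1A1, a fibrillar collagen chain, went the other way, with 0.0792, 0.14 and 0.0823 FPKM in induced CFPAC-1 libraries, against 0.0445, 4.27 and 4.28 FPKM in CFPAC-1 control libraries (limma adjusted p = 0.057). COL3A1 was likewise at most 0.16 FPKM in induced CFPAC-1 libraries, against 0.0733, 1.98 and 2.06 FPKM in CFPAC-1 control libraries. The summed fibroblast list ranged over 26.0 to 110 FPKM in induced and 6.31 to 37.3 FPKM in control CFPAC-1 libraries. COL1A2, DCN and PDGFRB stayed under 1 FPKM in every library. Of 6 macrophage and leukocyte markers, CD68, a lysosomal protein, had 47.8, 38.9 and 37.1 FPKM in induced CFPAC-1 libraries, against 12.8, 6.94 and 6.64 FPKM in CFPAC-1 control libraries. It passed upwards at 2.16 on the log2 scale (limma adjusted p = 0.00339), and not without control 2 and 3, where the change was 1.61 (limma adjusted p = 0.0897). CD14, the other tested marker of that list, had 0.33, 0.393 and 0.318 FPKM in induced CFPAC-1 libraries, against 0.372, 4.22 and 3.97 FPKM in CFPAC-1 control libraries (limma adjusted p = 0.0506). The summed macrophage and leukocyte list ranged over 37.5 to 48.2 FPKM in induced and 10.6 to 13.3 FPKM in control CFPAC-1 libraries, while the leukocyte marker PTPRC reached at most 0.00981 FPKM and AIF1 was listed at 0 in all 12 libraries. In BxPC-3 the summed fibroblast list was at 1.09 to 1.41 FPKM in induced and 1.33 to 1.74 FPKM in control libraries. The summed macrophage and leukocyte list was there at 8.89 to 12.6 FPKM in induced and 5.28 to 6.05 FPKM in control libraries. CD14 had 6.31, 7.06 and 6.64 FPKM in induced BxPC-3 libraries, against 2.18, 1.63 and 1.39 FPKM in BxPC-3 control libraries, a log2 change of 1.50 (limma adjusted p = 0.259). That change passed when CFPAC-1 control 2 and 3 were left out of the fit (limma adjusted p = 0.00743). The part of these markers in the complement changes was not tested.

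The changes on induction differed between the lines for C3 and CD55. The difference of log2 changes, BxPC-3 minus CFPAC-1, was -2.23 for C3 (standard error 0.49, limma adjusted p = 0.0441) and -1.75 for CD55 (standard error 0.37, limma adjusted p = 0.0374). So 2 of the 9 genes passed, both downwards, where 2.45% of all tested genes passed, 1.34% upwards and 1.11% downwards. Without CFPAC-1 control 2 and 3 the difference was -1.33 for C3 (limma adjusted p = 0.164) and -1.66 for CD55 (limma adjusted p = 0.135), and none of the 9 genes passed, where 0.428% of all tested genes did. The C3 call was lost in 11 of the 12 fits that left out 1 library and kept without CFPAC-1 control 1. The CD55 call was lost in 9 of 12 and kept without CFPAC-1 control 1, BxPC-3 control 1 or induced BxPC-3 library 1. For CFD the difference was -1.90 (limma adjusted p = 0.0645). It passed without CFPAC-1 control 1, induced CFPAC-1 library 1 or induced BxPC-3 library 1. For CFB it was -1.34 (limma adjusted p = 0.185), and -0.19 without control 2 and 3 (limma adjusted p = 0.852). Without CFPAC-1 control 1 it was -1.91 (limma adjusted p = 0.00134). The remaining 5 genes did not pass.

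RNA levels of some complement genes differed between induced cultures of the lines. The log2 difference, induced BxPC-3 minus induced CFPAC-1, was 2.62 for C1R (limma adjusted p = 1.89e-05), 2.45 for C3 (limma adjusted p = 0.000309) and 0.94 for C1S (limma adjusted p = 0.00979). For CFD it was -3.01 (limma adjusted p = 7.03e-05). C1R met the filter only through BxPC-3, the line where it is high, so it had to differ and its p adds nothing to the values. C1S would not have met it through CFPAC-1, where only induced library 3 reached 1 FPKM. The counts below carry this limit. Thus 3 of 9 genes were higher and 1 was lower in induced BxPC-3 cells, where 36.2% of all tested genes passed, 21.4% upwards and 14.8% downwards, which is near the share of the members. For the 9 genes these counts were the same in the fit lacking control 2 and 3 of CFPAC-1, where 44% of all tested genes passed. Values of 7 of the 9 genes did not overlap between the lines, where 54.5% of all tested genes did not. Among these 7, CFI and C1R met the filter only through BxPC-3, so their separation adds nothing. For CFI the nearest induced libraries were near the floor, at 0.0784 FPKM in BxPC-3 and 0.0568 FPKM in CFPAC-1. CD46 and CD55 overlapped. CFB differed by 0.32 on the log2 scale (limma adjusted p = 0.573) and CD59 by 0.40 (limma adjusted p = 0.2). C3 was 2.45 higher on the log2 scale with all numbers, and 1.95 within library number 1. For CFD the difference was -1.79 within library number 1 and -3.62 within numbers 2 and 3.

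The balance of the alternative pathway genes differed between the lines, on the FPKM scale. C3 over CFB averaged 4.79 ± 1.76 in induced and 9.35 ± 1.17 in control BxPC-3 libraries, and 1.01 ± 0.166 in induced CFPAC-1 libraries (SD, n = 3 each), beside 0.711 in CFPAC-1 control 1. In control 2 and 3 of CFPAC-1 both genes lay under 0.5 FPKM and no ratio was taken. CFD over CFB averaged 0.263 ± 0.0494 in induced and 1.25 ± 0.389 in control BxPC-3 libraries, and 3.13 ± 0.99 in induced CFPAC-1 libraries, beside 7.10 in CFPAC-1 control 1. C3 made up 77.6% ± 8.44 of the summed C3, CFB and CFD in induced BxPC-3 libraries and 80.7% ± 1.25 in BxPC-3 control libraries. In CFPAC-1 that share was 20.5% ± 6.87 in induced and 3.43% ± 4.02 in control libraries, where CFD was the largest of the 3. Control 1 alone had a share of 8.07%.

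Summed FPKM of C3, CFB and CFD was 145 ± 21.0 in induced and 47.6 ± 12.0 in control BxPC-3 libraries, and 101.5 ± 26.1 in induced and 13.8 ± 7.61 in control CFPAC-1 libraries. Summed FPKM of CD46, CD55 and CD59 was 69.3 ± 13.4 in induced and 55.2 ± 8.05 in control BxPC-3 libraries, and 56.9 ± 6.66 in induced and 39.7 ± 6.20 in control CFPAC-1 libraries (SD, n = 3 each). The first sum over the second was 2.18 ± 0.652 in induced and 0.887 ± 0.317 in control BxPC-3 libraries. It was 1.84 ± 0.663 in induced and 0.374 ± 0.267 in control CFPAC-1 libraries. In CFPAC-1 control 1 alone the first sum was 22.6 FPKM, the second was 33.1 FPKM and their ratio was 0.681. Induced libraries held more transcript of the 3 alternative pathway genes than of the 3 membrane inhibitors, and the reverse held in 5 of the 6 control libraries.

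**Figure D3:**
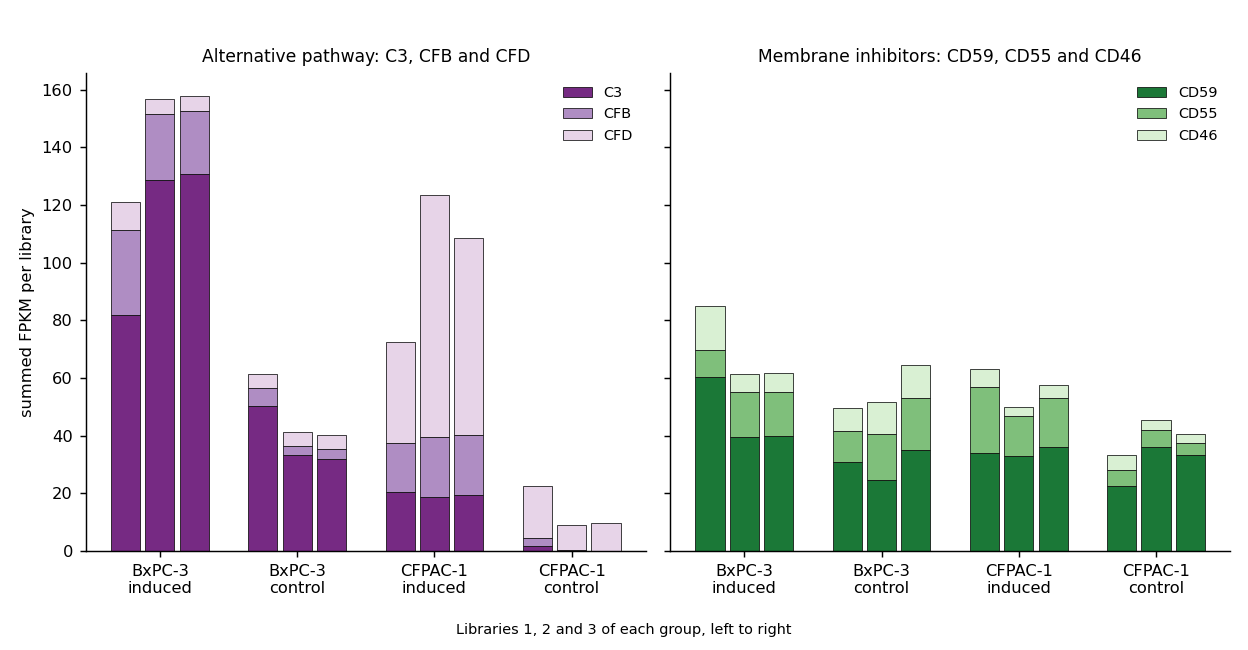
Summed FPKM per library of C3, CFB and CFD (left) and of CD59, CD55 and CD46 (right), libraries 1, 2 and 3 of each group from left to right. The alternative pathway sum was 72.5 to 158 FPKM in induced libraries and 9.14 to 61.4 FPKM in control libraries, with C3 the largest of the 3 in BxPC-3 and CFD in CFPAC-1.

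Of 52 other complement genes listed, 9 passed the filter on low values. The 3 C1q chains, the mannose-binding lectin gene MBL2 and the terminal components C6 and C8A were among 12 genes listed at 0 in every library. C2, C4A and C4B, the substrates of C1s, reached at most 0.712 FPKM, and C5, C6, C7, C8A, C8B and C9 at most 0.315 FPKM. A gene listed at 0 or near it may lie under the limit of detection, since the depth in reads is unknown.

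SERPING1, the C1 inhibitor that blocks C1r and C1s, rose in BxPC-3. It had 1.68, 1.94 and 1.80 FPKM in induced BxPC-3 libraries, against 0.464, 0.616 and 0.543 FPKM in BxPC-3 control libraries. In CFPAC-1 it had 0.027, 0.00768 and 0.0233 FPKM in induced libraries, against 0, 0.203 and 0.133 FPKM in control libraries. The BxPC-3 change was 0.86 on the log2 scale (standard error 0.14, limma adjusted p = 0.0297). SERPING1 alone of the 9 other genes passed there, where 0.334% of all tested genes did, 0.295% upwards and 0.0389% downwards. SERPING1 met the filter only through the 3 induced BxPC-3 libraries, so it had to differ from control to be tested at all. Its BxPC-3 call was lost in 8 of the 12 fits that left out 1 library, all of them numbered 2 or 3, with limma adjusted p from 0.0075 to 0.177. The difference of changes between lines, BxPC-3 minus CFPAC-1, was 0.99 (limma adjusted p = 0.0349), and it was 0.84 with those CFPAC-1 controls left out that stood apart (limma adjusted p = 0.135).

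In CFPAC-1, THBD, which encodes the thrombin receptor thrombomodulin, had 187, 168.5 and 179 FPKM in induced libraries, against 112, 0.967 and 0.653 FPKM in control libraries. It passed upwards with all libraries at 4.64 on the log2 scale (limma adjusted p = 0.0325). Without control 2 and 3, which decide this value, the change was 0.67 (limma adjusted p = 0.685). C1QBP, a mainly mitochondrial protein that binds C1q, had 46.4, 61.1 and 56.7 FPKM in induced CFPAC-1 libraries, against 105, 151 and 146 FPKM in CFPAC-1 control libraries. It fell by 1.27 on the log2 scale (limma adjusted p = 0.00645), and the change was -0.94 without control 2 and 3 (limma adjusted p = 0.138). The remaining 6 genes passed in neither line. THBD and C1QBP were thus 2 of the 9 other genes called in CFPAC-1. Of all tested genes 16.6% passed there, 7.85% upwards and 8.77% downwards.

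Between induced lines, SERPING1 and the C1r-like protease C1RL were higher in BxPC-3, by 1.46 and 0.95 on the log2 scale. PROS1 (protein S), C8G (a chain of C8), the chaperone clusterin (CLU) and the integrin chain ITGB2 were lower in BxPC-3, at -2.87, -1.46, -1.41 and -0.81. All 6 of these genes passed with limma and Benjamini-Hochberg adjusted p of at most 0.0303. Such differences were common, since 36.2% of all tested genes passed between induced lines, 21.4% upwards and 14.8% downwards. PROS1 and C8G met the filter only through CFPAC-1 and SERPING1 only through BxPC-3, the line where each is high, so these 3 had to differ. Leaving out 1 library lost the call of CLU in 4 of 12 fits (adjusted p up to 0.119), without induced library 2 or 3 of either line. It lost the call of C8G in 3 fits (up to 0.0701), without induced CFPAC-1 library 2 or 3 or induced BxPC-3 library 1. It lost the call of ITGB2 in 3 fits (up to 0.066), without induced CFPAC-1 library 2 or 3 or induced BxPC-3 library 3. The CLU call was also lost with a replicate block and, like that of C8G, with no filter on low values. For CLU the sign turned within library number 1, at 0.57.

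**Figure D4:**
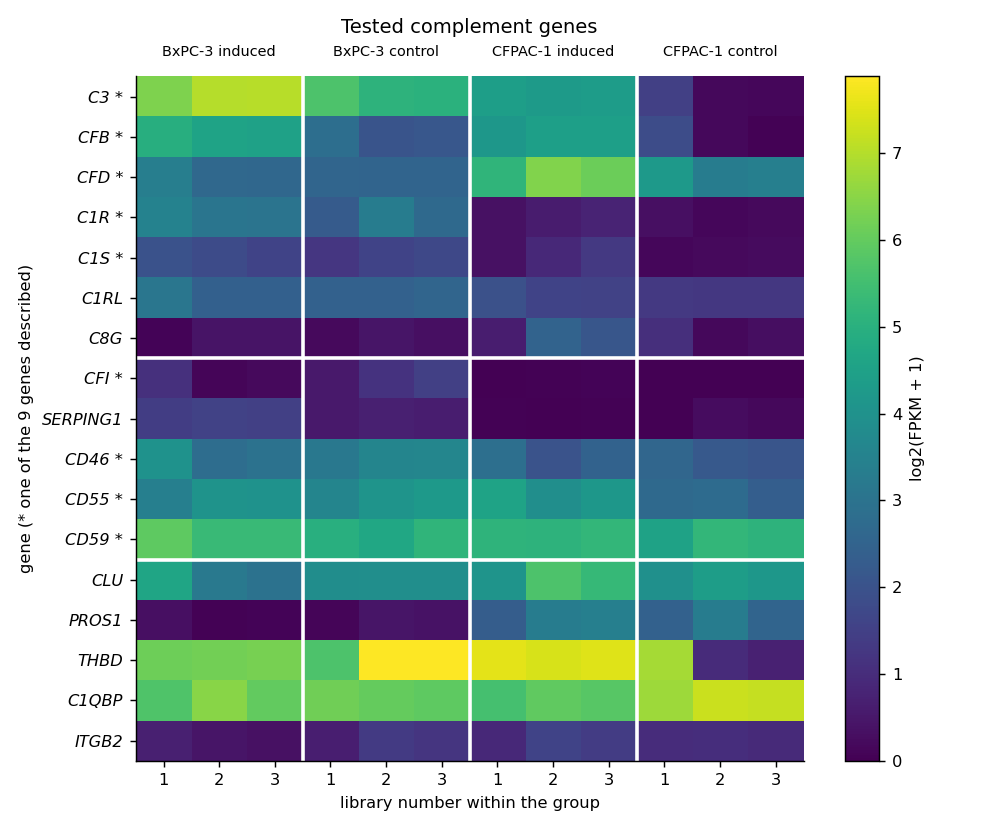
Heat map of log2(FPKM + 1) of complement genes that met the filter (9 described gene by gene, marked with asterisks, and 8 others), one column per library. White lines part the groups and, down the page, components, regulators and other genes. C3 was highest in induced BxPC-3 libraries at 82.0 to 131 FPKM, CFD in induced CFPAC-1 libraries, and THBD was at 0.967 and 0.653 FPKM in CFPAC-1 control 2 and 3.

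Likeness to each gene was measured as the root mean square difference between profiles of log2(FPKM + 1), each centred on its mean over the 12 libraries. The 12 libraries share 4 groups, so these are descriptions without a test. The genes nearest to CFB were PDZK1IP1 at 0.534, CLEC2B at 0.622 and EGLN3 at 0.629, beside an SD of 1.75 for CFB itself. For C3, with an SD of 2.43, they were RAC2 at 0.743, ACSL5 at 0.769 and TSPAN1 at 0.877. For CFD, with an SD of 1.42, KPNA7 at 0.248 and ITGA10 at 0.261 came first. For CD55, with an SD of 0.704, TPT1 at 0.257 and AMPD3 at 0.268 came first. For C1R the nearest gene with a name was ADGRF4 at 0.245, for C1S it was UCA1 at 0.161, and for CD46 it was KIAA1217 at 0.145. No gene came within the limit set for CD59, which varied least of the 9 genes (SD 0.344).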

How the data were processed

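RNA-seq of 12 libraries was used as deposited. Per the labels' protocols, total RNA was taken with TRIzol for Illumina libraries. FastQC, StringTie and GRCh38 are listed in the submitters' processing notes. Aligner, annotation and strand setting are not stated there. The authors deposited 1 table of log2 values, log2(FPKM + 1), for 60564 genes, per the file headers, and FPKM was recovered by undoing the log2. FPKM is relative to each library's total, and mitochondrially encoded genes made up 11.6% to 34% of it.

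The table gives no counts, so the depth is unknown and no counting interval can be given. Steps of low values put the libraries' relative depth at 0.633 to 1 of the deepest. Columns were matched to samples by name. Gene identifiers were placed with GENCODE 29 (96.5% found), and promoters came from RefSeq (GRCh38.p14), with 7 of the 9 members found.

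Genes with at least 1 FPKM in at least 3 libraries (12860) were fitted in R 4.3.3 with limma 3.58.1 on log2(FPKM + 1), with 4 group means, 8 residual degrees of freedom, no trend and no block. The pipeline was tested on simulated data that gave each gene the same spread in every group. That test does not cover the wider spread among CFPAC-1 control libraries. The 4 contrasts were induced minus control in each line, the difference of these changes, and BxPC-3 minus CFPAC-1 among induced libraries, all two-sided with Benjamini-Hochberg adjustment over all tested genes. Ratios needed at least 0.5 FPKM of both genes.

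Alternatives left out CFPAC-1 control 2 and 3 or each library in turn, added a replicate block, or changed the pseudocount, filter, scaling, limma settings or libraries fitted. The members and the lists of other complement genes, cytokine inputs, acute phase proteins and cell type markers were chosen with earlier results of these data known. Named genes were the 9 members, other listed genes that passed or were most abundant, and for likeness the 3 nearest genes within a distance limit. Same-numbered libraries did not deviate together (correlations -0.0798 to 0.151), so numbers were not taken as pairs. Results for some listed genes are not reported here.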

Additional observations from a re-analysis of the deposited data

Results flagged for a closer look

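The change on induction differed between the lines for C3, CD55 and SERPING1, by limma's test of the difference itself with Benjamini-Hochberg adjustment. These were 2 of the 9 genes and 1 of the 9 other complement genes tested, where 2.45% of all tested genes passed. The difference of log2 changes, BxPC-3 minus CFPAC-1, was -2.23 for C3 (limma adjusted p = 0.0441). It was -1.75 for CD55 (limma adjusted p = 0.0374) and 0.99 for SERPING1 (limma adjusted p = 0.0349). SERPING1 met the filter on low values only through the 3 induced BxPC-3 libraries, where it is high, so its BxPC-3 change had to differ. Leaving out 1 library lost the call of C3 in 11 of 12 fits, of CD55 in 9 and of SERPING1 in 8. None of the 3 passed without CFPAC-1 control 2 and 3, where the limma adjusted p was 0.164 for C3, 0.135 for CD55 and 0.135 for SERPING1.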

How the results depend on the processing

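Of 294 values of the 9 genes under other settings, 273 kept their direction and their side of the threshold, 16 lost and 3 gained a call, and 2 changed sign. Values that passed in neither setting count as kept. Fits without 1 library and changes within library numbers are not in this count. Of the 12 fits without 1 library, 9 lost the call of CFB in BxPC-3. For the difference between lines, 11 lost that of C3 and 9 that of CD55. Depth in reads is unknown, which limits statements on genes listed near 0, and 3 libraries a group limit the rest. The cause of the changes below was not tested.

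Without CFPAC-1 control 2 and 3, genes called numbered 222 in CFPAC-1 and 55 for the difference between lines. Complement members called were then 0 for the difference, 2 in BxPC-3 and 2 in CFPAC-1, and other complement genes called were 0 in CFPAC-1 and 0 for the difference. The change of CD46 in CFPAC-1 became -0.16 and that of SERPING1 0.028. With a replicate block, 0 members and 2 other complement genes passed for the difference, and 2428 genes passed in CFPAC-1 and 33 in BxPC-3. The block changed no other count of member calls. The labels do not say that numbers mark shared cultures, and the numbers paired libraries in neither line.

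With log2(FPKM + 0.1), 25 genes, 0 members and 0 other complement genes passed in BxPC-3, 163 genes, 0 members and 0 others for the difference, and the C1R difference became -0.62. With no filter on low values, 73 genes and 0 members passed in BxPC-3, 0 members for the difference, and other complement genes called were 6 in CFPAC-1 and 11 between induced lines. At a mean FPKM of at least 5, C1R, C1S and CFI were not tested. Genes called were then 2140 between induced lines, 162 for the difference, 11 in BxPC-3 and 1329 in CFPAC-1, members called were 0 in BxPC-3 and 2 between induced lines, and other complement genes called were 0 in BxPC-3, 0 for the difference and 1 between induced lines. Fitted alone, CFPAC-1 gave 364 genes and 1 other complement gene, and BxPC-3 gave 13 genes, 0 members and 0 others.

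With quantile normalization, 0 other complement genes passed in BxPC-3 and 2 for the difference, and the BxPC-3 changes of C1QBP and C8G became -0.072 and 0.0082. Rescaled without mitochondrially encoded genes, 0 members passed in BxPC-3 and 2 other complement genes for the difference, and the BxPC-3 change of C1QBP became -0.039. Rises made up 47.2% of calls in CFPAC-1 and 30.5% after that rescaling. For the difference, positive calls made up 54.6%, against 36% with quantile normalization and 66.7% after that rescaling. The trend and robust settings of limma changed no member call. Within library number 1, the CLU difference between induced lines was 0.57.

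Leaving out each library in turn gave 3428 to 6078 genes called between induced lines, 0 to 4148 for the difference, 2 to 249 in BxPC-3 and 506 to 5403 in CFPAC-1. Members called ran from 4 to 5 between induced lines, 0 to 4 for the difference, 0 to 2 in BxPC-3 and 4 to 5 in CFPAC-1. Other complement genes called ran from 4 to 8 between induced lines, 0 to 3 for the difference, 0 to 1 in BxPC-3 and 1 to 3 in CFPAC-1. Log2 changes that crossed 0 ran from -0.069 to 0.37 for CD46 and from -0.0094 to 0.32 for CD59 in CFPAC-1. In BxPC-3 they ran from -0.55 to 0.051 for CD46, -0.35 to 0.062 for CD55, -0.19 to 0.20 for C1QBP, -0.056 to 0.28 for C1RL, -0.078 to 0.10 for C8G and -0.80 to 0.027 for CLU. The C1R difference between lines ran from -0.15 to 0.37. The largest counts of genes called in CFPAC-1 and for the difference came without CFPAC-1 control 1, and that for BxPC-3 without BxPC-3 control 1.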

Other observations

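Acute phase genes, made like complement in inflamed liver and epithelium, were also followed. Of 19 listed, 6 met the filter. In CFPAC-1, SAA1 (serum amyloid A), LCN2 (the iron-siderophore binder lipocalin-2) and CP (ceruloplasmin) rose by 3.14, 4.66 and 2.12 on the log2 scale. Their limma and Benjamini-Hochberg adjusted p was 0.0196, 0.0148 and 0.0109. So 3 of the 6 passed upwards and 0 downwards, where 7.85% of all tested genes passed upwards and 8.77% downwards. Without control 2 and 3, which leaves a single control library, the changes were 2.91, 1.82 and 2.21 in the same order. LCN2 had 92.9, 54.1 and 58.6 FPKM in induced CFPAC-1 libraries, against 18.1, 0 and 0 FPKM in CFPAC-1 control libraries. In BxPC-3 limma passed none of the 6, and 4 had an unadjusted p under 0.05, all upwards. The share of all tested genes at that threshold was not computed, so this count has no baseline. SAA1 there had 50.1, 272 and 259 FPKM in induced libraries, against 40.8, 15.8 and 13.9 FPKM in control libraries, with the groups much further apart in libraries 2 and 3 than in library 1.

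Of 22 listed inputs of complement transcription, 18 met the filter. In CFPAC-1, IL1A, NFKB2, RELA, CEBPB and CEBPD passed upwards. CEBPD, a transcription factor of the acute phase, had 45.7, 108 and 95.4 FPKM in induced CFPAC-1 libraries, against 16.3, 16.7 and 16.0 FPKM in CFPAC-1 control libraries. It rose by 2.19 on the log2 scale (limma adjusted p = 0.00165) and alone of the 18 passed also without control 2 and 3 (limma adjusted p = 0.041). In BxPC-3 limma passed none of the 18, and 4 had an unadjusted p under 0.05, of which 2 were upwards and 2 downwards. For this count too, no share over all tested genes was computed. IL1B there had 21.4, 145 and 142.5 FPKM in induced libraries, against 22.5, 98.0 and 97.7 FPKM in control libraries, so the groups overlapped. No relation of these genes to the complement genes was tested.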
